A study of Mus musculus with 4 samples.

Results

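The cells described here were CD45-positive leukocytes from regenerating muscle at 4 days post-injury (dpi4), from 1 library labelled control and 1 labelled KO. Their members were chosen by 2 limits on each barcode, at least 500 detected genes and under 10% of UMIs from mitochondrial genes, and the UMIs of the kept barcodes were then summed per library. Of 9721 barcodes in both dpi4 libraries, 7856 were kept, 4323 from the control and 3533 from the library labelled KO, out of 17665 kept cells in the whole series of 4 libraries. The remaining pair was collected at dpi2, and its values are set beside those of dpi4 without a test.

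Both groups were male mice of 8 to 12 weeks with both copies of *Bach1* flanked by loxP sites (Bach1 fl/fl) around exon 4, which encodes part of the DNA-binding domain. The control mice carried no Cre recombinase, and the KO mice carried Lyz2-Cre, in which the promoter of *Lyz2*, the gene for the lysozyme of myeloid cells, drives the recombinase. Lyz2-Cre acts in monocytes, macrophages and neutrophils, and neither lymphocytes nor muscle fibres are targeted by it. All mice received cardiotoxin, a venom component that kills muscle fibres, in the tibialis anterior, a muscle of the shin. Leukocytes were enriched with beads against CD45, the surface protein shared by white blood cells, and profiled by 10x Genomics 3′ single-cell RNA sequencing. With 1 library per group no spread between animals was measured, so no test was run, and every interval below is a 95% interval for counting error only.

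BACH1 is a transcription factor that pairs with small MAF proteins and keeps genes for heme breakdown, iron storage and glutathione synthesis silent. Heme binds BACH1 and releases it from DNA, after which the activator NRF2 can occupy the same sites. Macrophages of injured muscle take up dead fibres and red blood cells, and so meet much heme, while at this stage they pass from an inflammatory to a repair state and support the growth of new fibres.

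The kept control cells held 76417632 UMIs and those labelled KO 58451689, with medians of 15311 and 13894 UMIs per cell. Barcodes with 10% or more mitochondrial UMIs made up 15.4% of all control barcodes and 19.9% of those labelled KO, and the kept cells of these libraries shared 2 barcode sequences. Ribosomal protein genes took 14.8% and 12.4% of the UMIs. Both other scalings tried moved the log2 ratios of all genes by -0.01, and values are given as CPM, that is, UMIs of a gene scaled by all UMIs of its library to a common total, with the control first. The defining markers of leukocytes were present: 65.9% of control cells and 71.0% of cells labelled KO fell into clusters given the macrophage name, in each of which all 12 macrophage markers were detected. Summed levels of 7 fibroblast markers were 1025 and 458 CPM and those of 14 muscle markers 174 and 88.8 CPM, and whether this RNA came from other cells, free RNA or engulfed material was not tested.

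The labels were first checked against the targeted gene and the driver gene. *Bach1* (chr16:87698945-87733346, GRCm38) was at 210.2 CPM in control cells and 218 CPM in those labelled KO, a ratio of 1.04 (95% counting interval 1.01 to 1.06). Gene-level 3′ counts do not show whether exon 4 is present, so this value checks nothing about the deletion. *Lyz2* (chr10:117277331-117282321) was at 16175 CPM in control cells and 21.7 CPM in those labelled KO, a log2 ratio of -9.54, and it had 1236051 and 1269 UMIs. The usual Lyz2-Cre allele carries the recombinase inside this gene, and the near absence of its transcript in the library labelled KO follows the labels. Around *Bach1*, none of the 5 genes tested within 1 Mb on each side passed the rule of size given below, while around *Lyz2* 1 of 14 did, and that was its neighbour *Lyz1*. Within 5 Mb, 2 of 42 around *Bach1* and 3 of 40 around *Lyz2* passed, beside 3.63% of all genes.

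*Lyz1* (chr10:117287797-117292868), the lysozyme gene best known from the gut and adjacent to *Lyz2*, went the other way. Its level was 51.8 CPM in control cells and 493 CPM in those labelled KO, 9.51 times as high (interval 9.20 to 9.83). The promoters of both genes are shown because they lie side by side and their transcripts moved in opposite directions. Each holds 300 bases, from 250 before to 50 after the start, on the reverse strand of GRCm38.p6 as given by RefSeq, at chr10:117292819-117293118 for *Lyz1* and at chr10:117282223-117282522 for *Lyz2*. Capitals mark a match to TGACNNNGC, the core of the antioxidant response element searched on both strands, which lies 10 bases after the start in both.
Lyz1: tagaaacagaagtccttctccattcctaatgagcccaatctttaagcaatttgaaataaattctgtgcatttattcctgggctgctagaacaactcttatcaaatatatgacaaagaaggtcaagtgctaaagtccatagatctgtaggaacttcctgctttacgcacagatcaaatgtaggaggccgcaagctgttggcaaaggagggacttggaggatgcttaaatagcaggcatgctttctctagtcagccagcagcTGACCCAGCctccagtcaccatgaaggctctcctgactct
Lyz2: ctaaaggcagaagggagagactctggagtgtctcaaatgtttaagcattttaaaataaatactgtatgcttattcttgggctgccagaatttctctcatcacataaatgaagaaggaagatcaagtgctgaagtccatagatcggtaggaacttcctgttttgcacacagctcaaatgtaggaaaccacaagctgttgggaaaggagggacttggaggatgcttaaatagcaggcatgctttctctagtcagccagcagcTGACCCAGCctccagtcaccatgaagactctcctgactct
These promoters were equal at 201 of 300 positions, or 67%. The longest GENCODE transcripts are 1263 and 1316 bases long, and of the 50-base windows in the last 500 bases of *Lyz1*, 80 of 451 (17.7%) also occur in *Lyz2*. Of the 90-base windows there, 15 of 411 (3.65%) do. Reads from such stretches can be split or dropped between these genes, and the part of this in the *Lyz1* counts was not tested.

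Across the genome, 13398 genes had at least 50 UMIs in the pair, and their median log2 ratio of KO over control was 0.02. A gene passed the rule of size where its ratio was at least 2-fold in either direction and its counting interval left out 1. By this rule 486 genes (3.63%) passed, 152 of them (1.13%) higher under the KO label and 334 (2.49%) lower. These counts describe 2 libraries and are not counts of genes changed by a test. Large differences were few, with 11 genes more than 8-fold higher and 7 more than 8-fold lower, while 116 and 244 lay between 2-fold and 3-fold. Many were sparsely counted: 64 of the 152 higher genes and 168 of the 334 lower genes had under 200 UMIs. In summed counts, fewer cells of a type and less RNA per cell cannot be told apart.

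**Figure D1:**
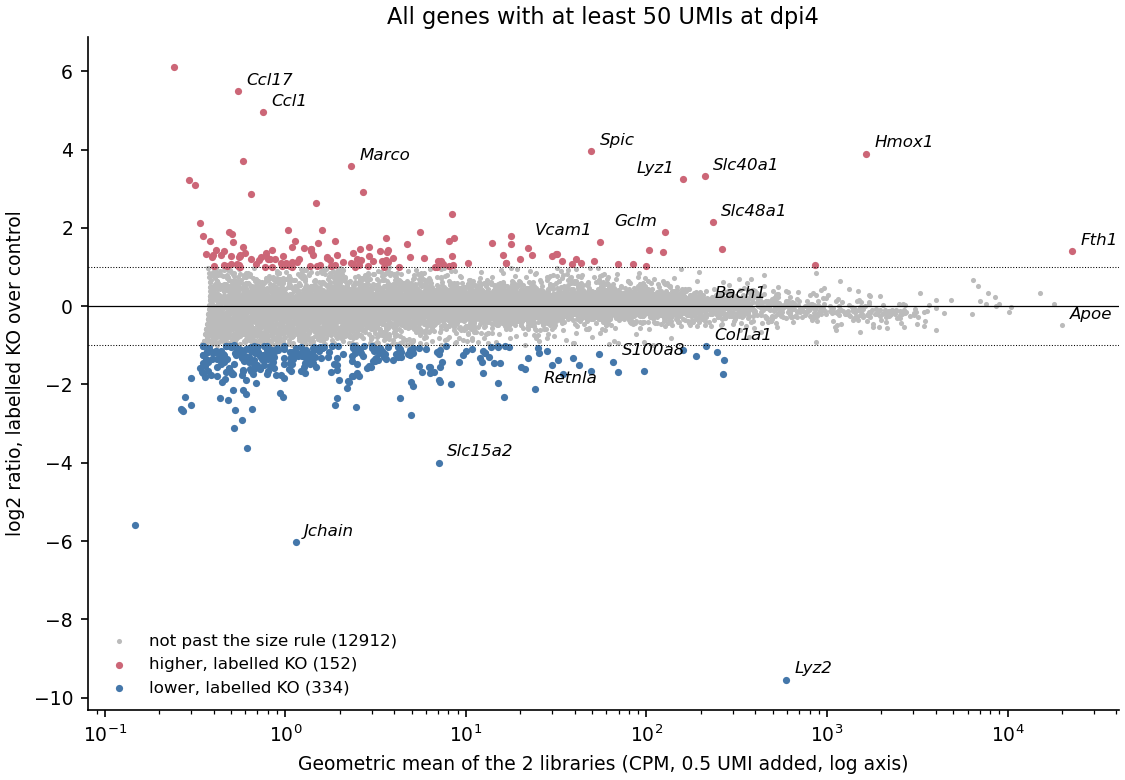
Log2 ratio of KO over control (vertical axis) against the mean level in CPM (horizontal, log scale) for the genes with at least 50 UMIs in the dpi4 pair, each point 1 gene. Most points lie near 0, *Hmox1*, *Spic* and *Slc40a1* stand far above, and *Lyz2* stands alone at the bottom with a log2 ratio of -9.54; 1 gene at 0 in the library labelled KO, *Mmp3*, is not drawn.

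Calls were then compared within the macrophage class alone, which held 71.1% of control UMIs and 78.2% of those labelled KO. Its counts are a large part of the sums that made the calls, so agreement there is no independent support. Of the 152 higher genes, 83 had at least 50 UMIs there, and 77 of those passed the rule there in the same direction, beside 0.973% of all 11917 genes scored in that class (2.25% in either direction). Of the 334 lower genes, 132 were scored in macrophages and 88 passed there, beside 1.28% of all genes. When the clusters whose best marker list was that of muscle, fibroblasts or endothelium were left out, among them 251 and 51 cells with muscle genes of which most also had macrophage genes, 296 genes passed (2.37% of 12487), 150 lower (1.2%) and 146 higher (1.17%).

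Genes of heme and iron handling held several of the highest ratios of the whole comparison. Of 23 measured members of this list, 4 were higher and none lower by the rule, beside 1.13% of all genes higher. Of the 23, 18 had a ratio above 1, beside 53.5% of all genes, and the median log2 ratio was 0.28. In macrophages alone and without the muscle, fibroblast and endothelial clusters 4 were higher as well, and *Steap4*, a metalloreductase, was lower, with log2 ratios of -1.56 and -1.51 against -0.52 over all cells. *Hmox1* (chr8:75093621-75100589), heme oxygenase 1, which opens the heme ring and frees its iron, was at 424 CPM in control cells and 6332 CPM in those labelled KO. This was 14.9 times as high (interval 14.8 to 15.1), and the gene had at least 1 UMI in 71.8% and 95.9% of cells. The shares were 27.7% and 75.3% in NK cells and 16.3% and 71.2% in T cells, which Lyz2-Cre does not target, and the part of free RNA in them was not tested. *Slc48a1* (chr15:97778520-97792692), which carries heme out of the phagolysosome into the cytosol, was at 111 CPM in control cells and 489.6 CPM in those labelled KO, a ratio of 4.42. *Slc40a1* (chr1:45908068-45926523), ferroportin, the exporter of iron from the cell, was at 66.3 CPM in control cells and 666 CPM in those labelled KO, a ratio of 10.0. The transcripts of *Hmox1*, *Slc48a1* and *Slc40a1* thus went the same way, while heme entry, heme breakdown and iron export themselves were not measured.

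Ferritin, in which iron is stored, has a pair of chains. *Fth1* (chr19:9980598-9985098), the heavy chain of ferritin, was at 13910.1 CPM in control cells and 37065 CPM in those labelled KO, a ratio of 2.66, and it had UMIs in every kept cell of both libraries. *Ftl1*, the ferritin light chain, was at 13392 and 17004 CPM and did not reach 2-fold. The genes of iron entry named next stayed under 2-fold. *Tfrc*, the transferrin receptor, was at 34.8 and 67.8 CPM, a log2 ratio of 0.96, just short of the limit. *Cd163*, the receptor for hemoglobin bound to haptoglobin, was at 9.15 and 8.78 CPM, and *Slc11a1*, the iron and manganese transporter of the phagosome, at 177 and 223 CPM. The enzymes after heme oxygenase in the same route, the biliverdin reductases *Blvra* and *Blvrb*, were at 111 and 122 CPM and at 221 and 269 CPM.

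**Figure D2:**
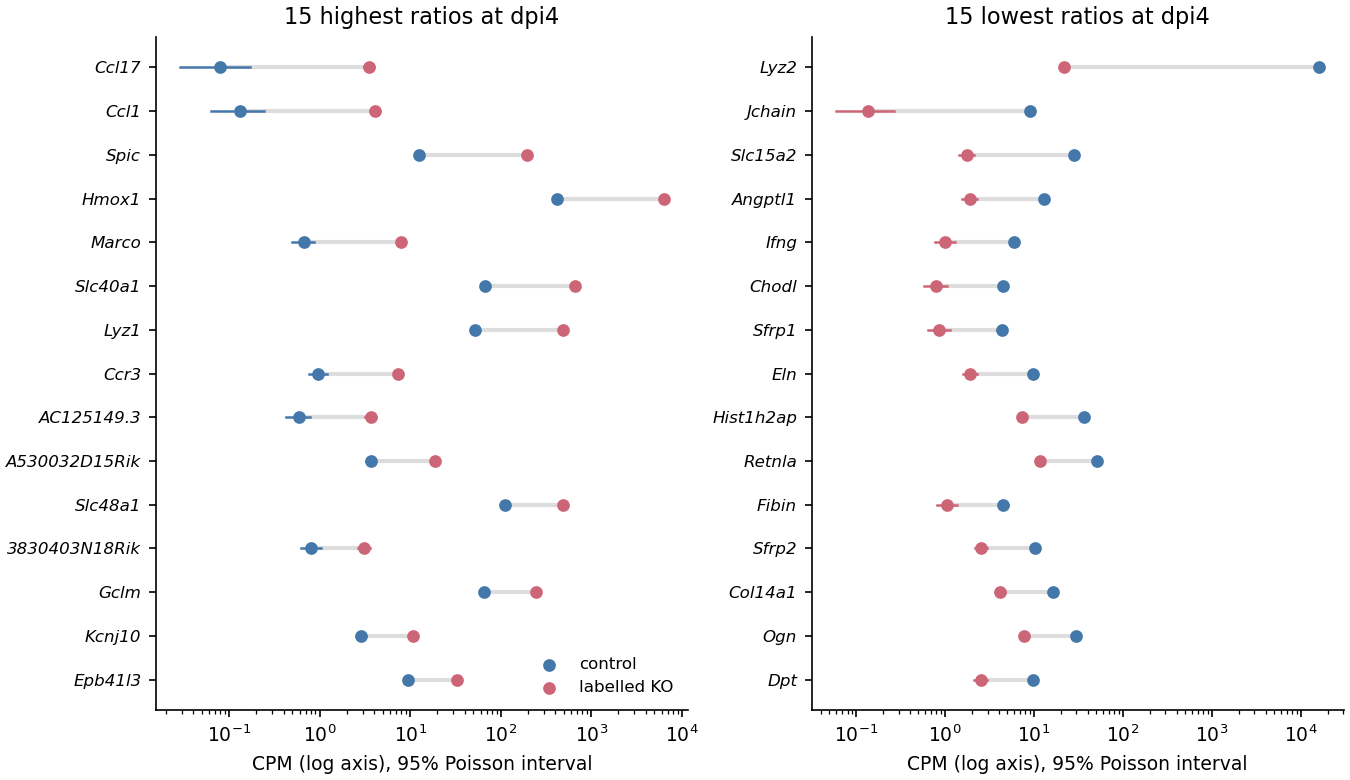
Summed level in CPM (horizontal axis, log scale) in the control and the library labelled KO for the 15 most raised and the 15 most lowered genes among those with at least 200 UMIs in the pair, with 95% Poisson intervals for counting error. The intervals of the libraries do not touch for any of the 30 genes, but these were picked for their extreme ratios, so their separation tests nothing. The intervals also do not cover the spread between cells. For *Jchain*, *Ifng* and *Ccl1*, most UMIs of the library with the higher level lay in few cells. *Hmox1*, at 424 and 6332 CPM, has the highest level among the 15 plotted genes that were higher.

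Several antioxidant genes were higher as well. Of 29 measured genes for glutathione, thioredoxin and NADPH, 3 were higher and 1 lower, beside 1.13% and 2.49% of all genes. Of the 29, 25 had a ratio above 1, beside 53.5% of all genes, and the median log2 ratio was 0.43, against 0.02 for all genes. The enzyme that starts glutathione synthesis has both its subunits among the 3. *Gclm* (chr3:122245557-122270732), its modifier subunit, was at 65.9 CPM in control cells and 246 CPM in those labelled KO, and *Gclc* (chr9:77754535-77794485), its catalytic subunit, at 26.7 and 62.0 CPM. Their ratios were 3.74 and 2.32. *Abcc1* (chr16:14361558-14475737), a pump for glutathione conjugates, was at 29.7 and 63.5 CPM, a ratio of 2.14.

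The remaining members stayed under the limit. *Slc7a11*, which imports cystine for glutathione, was at 63.3 and 99.4 CPM, and *Txnrd1*, thioredoxin reductase 1, at 98.4 and 154 CPM. *G6pdx*, the first enzyme of the pentose phosphate route and a source of NADPH, was at 46.1 and 70.9 CPM. *Nqo1*, a quinone reductase often used to read NRF2 activity, had few UMIs, at 0.995 and 0.873 CPM (76 and 51 UMIs). *Ephx1* (chr1:180976210-181020904), microsomal epoxide hydrolase, was the lower member, at 21 and 8.59 CPM, a log2 ratio of -1.29.

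The promoter of *Gclm* is shown as an example of a member in which the searched motif was found. It lies at chr3:122245307-122245606 on the forward strand (RefSeq, GRCm38.p6, 300 bases), and capitals mark the match to TGACNNNGC, read on the reverse strand and starting 134 bases before the transcript start.
Gclm: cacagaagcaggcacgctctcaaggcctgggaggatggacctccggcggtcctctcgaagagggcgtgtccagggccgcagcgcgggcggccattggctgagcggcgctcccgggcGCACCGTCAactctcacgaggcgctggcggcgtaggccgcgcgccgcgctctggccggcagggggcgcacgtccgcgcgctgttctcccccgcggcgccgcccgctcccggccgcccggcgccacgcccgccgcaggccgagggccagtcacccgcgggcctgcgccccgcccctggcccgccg
The same search over 27025 genes with a promoter in the table found TGACNNNGC in 14% of them and in 17.0% of the 10006 tested genes that had one. It was found for 9 of 25 genes (36%) of the glutathione, thioredoxin and NADPH list, for 6 of 19 (31.6%) of the heme and iron list, for 16 of the 110 higher genes (14.5%) and for 29 of the 217 lower genes (13.4%). A longer motif of 10 bases, 1 form of the MAF recognition element, was found for 0.167% of the 27025 genes and in 0 of the 110. TGANTCA, the AP-1 site that overlaps it, was found for 8.97% of the 27025, 6.43% of the tested genes and 5 of the 110 (4.55%). It was also found for 18 of the 217 lower genes (8.29%), 4 of 25 of the glutathione list (16%) and 0 of 19 of the heme and iron list. Distal elements were outside these windows. No promoter sequence was given for *Hmox1*, *Slc40a1*, *Slc48a1*, *Gclc* or *Abcc1*.

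The factors that share these sites were themselves close between libraries. Of 8 measured BACH, NRF2 and small MAF genes none passed the rule, beside 3.63% of all genes, and their median log2 ratio was 0.09. *Nfe2l2* (chr2:75675513-75704641), which encodes NRF2, was at 404 and 327 CPM, and its inhibitor *Keap1* at 40.8 and 43.0 CPM. *Mafg*, a small MAF partner of BACH1, was at 64.6 and 88.5 CPM, and *Bach2*, the relative of *Bach1* best known from lymphocytes, at 12.4 and 16.9 CPM.

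*Spic* (chr10:88674772-88685015), the factor that heme induces in macrophages that clear red blood cells and that is needed for them, was the 1 fate factor of 18 that passed. It was at 12.5 CPM in control cells and 196 CPM in those labelled KO, 15.6 times as high (interval 14.6 to 16.7), and was found in 12.6% and 60.4% of cells, and in 2.13% and 13.5% of NK cells. No other fate factor passed, with *Spi1*, which encodes PU.1, at 310.0 and 261 CPM, and *Cebpb*, a factor of repair macrophages in muscle, at 449 and 631 CPM. Of 20 measured scavenger and efferocytosis receptors, 2 were higher and 1 lower, beside 1.13% and 2.49% of all genes, with a median log2 ratio of 0.30 and 16 above 1, beside 53.5% of all genes. *Vcam1* (chr3:116109949-116129688), an adhesion molecule that marks red pulp macrophages, was at 31.3 and 98.4 CPM, a ratio of 3.14. *Marco* (chr1:120474538-120505024), a scavenger receptor for bacteria and particles, was at 0.667 and 7.99 CPM, but with only 51 and 467 UMIs and with 76.5% and 53.1% of them in 10 cells. *Lyve1* (chr7:110850607-110863239), found on resident perivascular macrophages, was lower at 3.23 and 1.15 CPM, with 66.8% and 73.1% of its UMIs in 10 cells. Its log2 ratio was -0.20 in cells under 5% mitochondrial UMIs and -0.74 with no such limit, both under 2-fold. The receptor *Mertk* for dying cells was at 125 and 176 CPM and its ligand *Gas6* at 153 and 238 CPM, both under 2-fold.

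Some of the highest ratios rested on very few cells. *Ccl17*, a chemokine of dendritic cells that draws T cells, had 6 and 206 UMIs, but 121 of them lay in 1 cell labelled KO and 94.2% in 10 cells. *Ccl1* had 10 and 239 UMIs, all of the latter in 6 cells, and its log2 ratio of 4.97 turned to -1.88 when only cells under 5% mitochondrial UMIs were kept. At dpi2 *Ccl17* had 26 and 201 UMIs, a log2 ratio of 3.42. *Ccr3* (chr9:124021972-124031689), a chemokine receptor best known from eosinophils, was in contrast found in 65 and 230 cells, at 0.968 and 7.34 CPM, and its log2 ratio within macrophages was 3.0. *Siglecf*, which also marks eosinophils, was lower at 5.0 and 1.97 CPM, and their granule gene *Epx* had 0 UMIs in both libraries, which allows up to 3 in each.

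Of the other highest genes, the next 5 passed the rule in macrophages as well. *Epb41l3* (chr17:69075683-69289989), a protein that links membrane to cytoskeleton, was at 9.53 and 33.0 CPM over all cells and at 9.39 and 38.9 CPM in macrophages, where it had a log2 ratio of 2.05. *Kcnj10* (chr1:172341210-172374085), an inward rectifier potassium channel, was at 2.88 and 10.7 CPM. Of the uncharacterised transcripts, *A530032D15Rik* (chr1:85083069-85109853) was at 3.68 and 18.9 CPM and AC125149.3 at 0.589 and 3.66 CPM, and both had a ratio below 1 at dpi2, with log2 ratios of -0.21 and -0.31. The gene 3830403N18Rik on the X chromosome was at 0.811 and 3.11 CPM, with 80.6% and 38.5% of its UMIs in 10 cells.

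Inflammatory genes did not pass the rule at this stage. None of 21 pro-inflammatory mediators did, a count near the 3.63% of all genes past the rule, and their median log2 ratio was -0.27. *Il1b*, interleukin 1 beta, was at 635 and 442 CPM, *Tnf* at 130.3 and 118 CPM, and *Cd14*, the co-receptor for bacterial lipopolysaccharide, at 408 and 269 CPM. *Ptgs2*, the inducible cyclooxygenase, was at 151 and 106 CPM. In the macrophage class alone the list median was -0.06, but that class leaves out an unnamed cluster led by *Il1b*, *Cxcl2* and *Ccr2*, with 347 control cells (8.03%) and 180 labelled KO (5.09%). At dpi2, 10 of the same 21 genes were higher by the rule and the median was 1.0, with *Il1b* at 1164 and 2933 CPM, beside a dpi2 background of 6.11% of 12353 genes past the rule, 3.17% higher and 2.95% lower.

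Chemokines were mixed. Of 21 measured, *Ccl17* and *Ccl5* were higher, beside 1.13% of all genes, and the median was -0.08. Without the muscle, fibroblast and endothelial clusters *Ccl17* alone passed, and in macrophages *Ccl17*, *Ccl22* and *Cxcl9* did. *Ccl5*, made by NK and T cells among others, was at 69.5 and 141 CPM, but its log2 ratio was -0.22 within macrophages. The neutrophil-attracting *Cxcl1* was at 87.1 and 44.4 CPM and *Cxcl2* at 1405 and 1027 CPM, while *Pf4*, platelet factor 4, which macrophages also make, was at 938 and 1476 CPM. None of the last 3 reached 2-fold.

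Interferon-stimulated genes, which were lower in 22 of 22 members at dpi2 (median -1.51), beside 2.95% of all genes there, did not pass the rule at dpi4. None of the 22 did, beside 3.63% of all genes, the median log2 ratio was -0.11, and 7 had a ratio above 1, beside 53.5% of all genes. *Ifit3* was at 109.5 and 81.8 CPM, *Isg15* at 129 and 113 CPM and *Irf7*, the factor that amplifies this response, at 159 and 188 CPM. None of the 10 genes of antigen presentation by MHC class II passed either, with a median of -0.10 over all cells and of -0.44 within macrophages. *Cd74*, the invariant chain, was at 2825 and 2304 CPM in all cells, at 1804 and 1061 CPM in macrophages and at 13386 and 12857 CPM in dendritic cells, with log2 ratios of -0.77 and -0.06 in these classes.

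**Figure D3:**
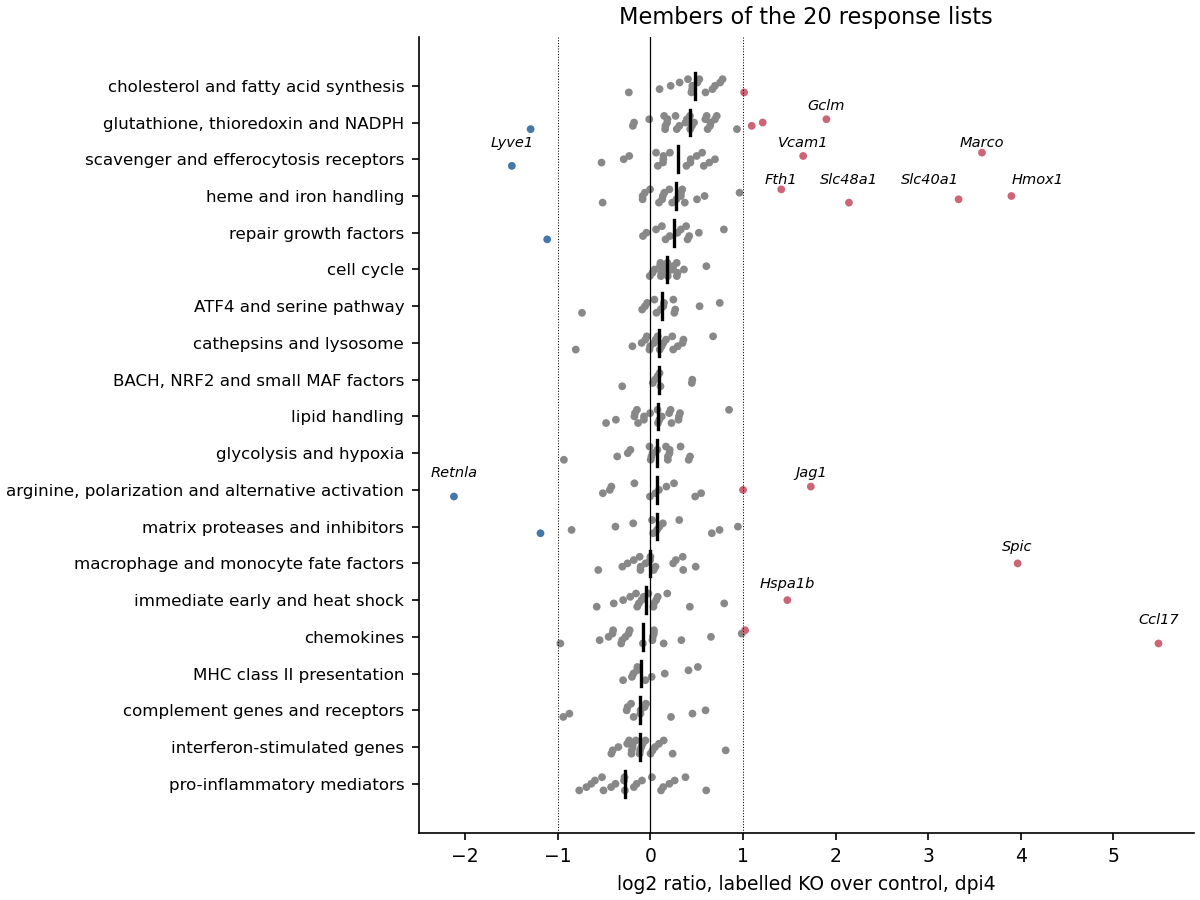
Log2 ratio of KO over control at dpi4 (horizontal axis) for the members of 20 response lists (rows), each point 1 gene with at least 50 UMIs in the pair and each black bar the list median. The medians of the 20 lists lie between -0.27 and 0.48, while single genes stand far to the right of their lists, among them *Hmox1* at 3.90, *Spic* at 3.97 and *Ccl17* at 5.49.

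Genes tied to repair mostly had a ratio above 1 without passing the rule. Of 14 measured growth factors and matrix signals, *Fn1* alone passed, as lower, beside 2.49% of all genes. *Fn1* (chr1:71585520-71653200), fibronectin, was at 233 and 108 CPM, a log2 ratio of -1.11 over all cells, -0.87 in macrophages and -1.09 without the muscle, fibroblast and endothelial clusters. In macrophages alone none was lower and *Areg*, amphiregulin, was higher, with a log2 ratio of 1.29 there and 0.42 over all cells. *Igf1*, the growth factor through which macrophages support new fibres, was at 340.2 and 590.0 CPM, a ratio of 1.73, and *Spp1*, osteopontin, at 5708 and 8208 CPM, both under the limit. *Tgfb1*, which drives fibrosis and matrix deposition, was at 286 and 277 CPM, and *Gdf15* at 478 and 553 CPM. The list median was 0.25, with 11 of 14 above 1, beside 53.5% of all genes.

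Among 14 genes of arginine metabolism and polarization, 2 were higher and 1 lower, beside 1.13% and 2.49% of all genes. *Jag1* (chr2:137081456-137116644), a Notch ligand, was at 4.70 and 15.6 CPM, a ratio of 3.32. *Retnla* (chr16:48842551-48844461), a marker of alternative activation, was at 50.5 and 11.6 CPM, but 92.1% and 88.1% of its UMIs lay in 10 cells of each library, and in dendritic cells it was at 495 and 19.9 CPM. *Chil3*, another such marker, was at 67.9 and 60.3 CPM.

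Metabolic lists held few calls. None of 20 lipid-handling genes passed, beside 3.63% of all genes, with *Lpl*, lipoprotein lipase, at 645 and 1163 CPM and *Apoe*, the lipid carrier, at 23504 and 16874 CPM. Of 16 genes of cholesterol and fatty acid synthesis 15 had a ratio above 1, beside 53.5% of all genes, the median was 0.48, and 1 was higher, beside 1.13%. This count was 0 without the muscle, fibroblast and endothelial clusters. This list had a median of -0.17 at dpi2. None of 17 glycolysis and hypoxia genes (median 0.08) and none of 14 ATF4 pathway genes (0.13) passed.

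The lysosome and the cell cycle were close between libraries. None of 20 cathepsin and lysosome genes passed (median 0.09), beside 3.63% of all genes, and *Ctsd*, cathepsin D, came nearest from above, at 5118 and 8185 CPM. None of 19 cell cycle genes passed, although 18 had a ratio above 1 (median 0.18), beside 53.5% of all genes, with *Mki67* at 51.3 and 51.1 CPM and *Mcm5* at 12.6 and 19.1 CPM. At dpi2, 7 of these 19 were lower, beside 2.95% of all genes, and the median was -0.67. None of 13 complement genes passed over all cells (median -0.11), and 1 was lower both in macrophages and without the muscle, fibroblast and endothelial clusters.

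Of 13 matrix proteases and inhibitors 1 was lower, beside 2.49% of all genes, and of 18 immediate early and heat shock genes 1 was higher, beside 1.13%. *Mmp2* (chr8:92827291-92853420), a gelatinase made mainly by fibroblasts, was lower at 19.1 and 8.40 CPM, and without the muscle, fibroblast and endothelial clusters its log2 ratio was 0.01. *Mmp13*, collagenase 3, had a log2 ratio of 0.75 over all cells and was higher in macrophages (1.26) and without those clusters (1.34). *Mmp12*, the macrophage elastase, was at 128 and 159 CPM. *Hspa1b* (chr17:34956436-34959238), an inducible HSP70, was higher at 13.2 and 36.7 CPM, and its near-identical neighbour *Hspa1a* was at 33.3 and 57.9 CPM, so the split of reads between them is uncertain. *Fos*, an early response gene that tissue dissociation also induces, was at 2442 and 1857 CPM. Over all 20 response lists 350 genes were measured, of which 16 were higher and 5 lower, or 6% past the rule, beside 3.63% of all genes. Many list members were named by the study on these libraries, so the lists give no independent evidence of direction.

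Among the lowest genes, *Slc15a2* (chr16:36750177-36784962), a proton-coupled peptide transporter, was spread over many cells. It was at 28.1 CPM in control cells and 1.76 CPM in those labelled KO, a log2 ratio of -4.0, was found in 851 and 58 cells, and was lower within macrophages (24.9 and 1.86 CPM) and dendritic cells (47.3 and 1.96 CPM). At dpi2 it had gone the other way, at 9.77 and 23.2 CPM. *Hist1h2ap* (chr13:21833026-21833507), a replication-dependent histone gene of a multigene family whose copies share reads, was at 36.4 and 7.31 CPM and, within macrophages, at 31.7 and 4.72 CPM, while the cell cycle genes above were close.

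Single cells set several of the other lowest values. *Jchain*, the joining chain of antibodies from plasma cells, had 680 and 8 UMIs, 657 of them in 1 control cell. *Ifng*, interferon gamma, had 456 and 59 UMIs, 380 of them in 1 control cell, and was found in 32 and 31 cells. Each of these values thus rests on 1 cell.

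The remaining lowest genes are given with what they encode. *Eln*, elastin, was at 9.67 and 1.92 CPM, *Col14a1*, a fibril-associated collagen, at 16.3 and 4.12 CPM, and *Ogn*, the proteoglycan osteoglycin, at 29.9 and 7.66 CPM. *Dpt*, dermatopontin, was at 9.63 and 2.51 CPM, and the WNT antagonists *Sfrp1* and *Sfrp2* were at 4.32 and 0.855 CPM and at 10.3 and 2.53 CPM. *Angptl1*, *Chodl* and *Fibin* were at 12.9 and 1.90 CPM, at 4.50 and 0.787 CPM and at 4.53 and 1.06 CPM, and 59.3%, 78.5% and 62.7% of their control UMIs lay in 10 cells. Of the 7 fibroblast markers 6 were lower as well (median -1.26), beside 2.49% of all genes, among them *Col1a1* at 306 and 151 CPM and *Pdgfra* at 3.19 and 0.992 CPM. Without the muscle, fibroblast and endothelial clusters the log2 ratio of *Sfrp2* was -0.09 and that of *Ogn* -0.87. Of the 7 fibroblast markers 5 were still lower there, beside 1.2% of all genes.

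Marker lists of other cell types were compared as summed counts, which do not show whether cells or RNA per cell differed. Of 14 muscle markers 9 were lower (median -1.18), and 3 without the muscle, fibroblast and endothelial clusters (median -0.77), with *Acta1*, skeletal actin, at 34.5 and 11.8 CPM and *Pax7*, the factor of muscle stem cells, at 6.48 and 2.87 CPM, while *Myod1* and *Myog*, factors of the myoblast stage, were at 1.82 and 2.14 CPM and at 4.07 and 4.0 CPM. Of 9 neutrophil markers 4 were lower (median -0.55), with *S100a8* and *S100a9*, the calprotectin subunits, at 107 and 40.1 CPM and at 87.9 and 28.0 CPM, and *Cxcr2*, the receptor for neutrophil chemokines, at 4.16 and 1.49 CPM. Of 8 NK cell markers 7 were higher (median 1.10), and 4 without those clusters (median 1.01), with the granzyme gene *Gzma* at 20.2 and 51.0 CPM and *Ncr1*, which encodes NKp46, at 2.02 and 4.09 CPM. All 11 dendritic cell markers had a ratio above 1 (median 0.57) and none passed, and none of 12 macrophage markers (median -0.08) or 9 monocyte markers (median -0.17) passed. Of 92 marker genes measured 9 were higher and 20 lower, or 31.5% past the rule, beside 3.63% of all genes.

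Shares of cells in clusters were compared next. The macrophage class held 65.9% of control cells and 71.0% of cells labelled KO, a difference of 5.16 percentage points (interval 3.08 to 7.23). Dendritic cells held 9.41% and 12.1%, NK cells 1.09% and 2.52%, T cells 1.13% and 1.67%, monocytes 0.625% and 1.19%, and neutrophils 3.17% and 1.42%. A cluster led by muscle genes held 5.81% and 1.44% of cells, but 99.0% of its cells also had UMIs of *Ptprc*, which encodes CD45, and 96.7% had UMIs of the macrophage gene *C1qa*. The latter gene was also found in 44.9% of cells in the NK cell cluster and 44.4% in the T cell cluster. The fibroblast class held 2.11% and 0.425%, and its shallower cluster, with a median of 2530 UMIs, had 49 cells in the control and 0 of 3533 cells labelled KO, which allows a share of up to 0.104%. In the deeper and shallower fibroblast clusters *Ptprc* was found in 61.4% and 49.0% of cells and *C1qa* in 77.2% and 77.6%. These differences depended on the clustering. With coarser clusters the macrophage difference was 0.264 points, and with each library clustered by itself the NK cell difference was 0.350 points, down from 1.43, and the fibroblast difference turned to 0.0772 points. In that setting the names covered other cells: the control had 95 NK cells and 0 T cells, against 47 and 49 in the joint clustering, and the library labelled KO had 82 fibroblasts and 0 endothelial cells, against 15 and 42. Bead enrichment, cell loss in preparation and the limits on barcodes can each set such shares, and their parts were not tested.

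Levels were also compared within cell classes. The clusters that held most macrophages differed between libraries: 765 of 2847 control macrophages and 153 of 2509 labelled KO were in the cluster led by *Lyz2*, *Sepp1* and *Apoe*, and 169 and 678 were in that led by *Slc40a1*, *Hmox1* and *Gdf15*. The response lists, which hold *Hmox1* and *Slc40a1*, were kept out of the genes used for clustering. In macrophages *Hmox1* was at 514 and 7550.5 CPM, in monocytes at 314 and 4329 CPM and in neutrophils at 121 and 4041 CPM. In dendritic cells it was at 159 and 1165 CPM, in T cells at 249 and 2286 CPM and in NK cells at 42.5 and 996 CPM. The ratio was above 1 in each of these 6 classes, though the monocytes were 27 and 42 cells and the NK cells 47 and 89. In B cells it was at 5809 and 2129 CPM, but only 1 of 7 control cells and 9 of 16 labelled KO had UMIs of it.

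Other genes with high ratios were compared in macrophages and dendritic cells. *Slc40a1* was at 76.6 and 798 CPM in macrophages and at 8.02 and 89.8 CPM in dendritic cells, and *Slc48a1* at 127 and 574 CPM and at 59.8 and 124 CPM. *Fth1* was at 15638 and 43070.3 CPM in macrophages, at 9336 and 47971 CPM in neutrophils and at 8378 and 12652 CPM in dendritic cells, the last with a log2 ratio of 0.59, under the limit. *Gclm* was at 73.6 and 282 CPM in macrophages and at 37.1 and 69.7 CPM in dendritic cells. *Spic* was at 13.9 and 222 CPM in macrophages and at 3.49 and 38.4 CPM in dendritic cells, where the control had 20 UMIs. *Vcam1* was at 21.5 and 107 CPM in macrophages.

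**Figure D4:**
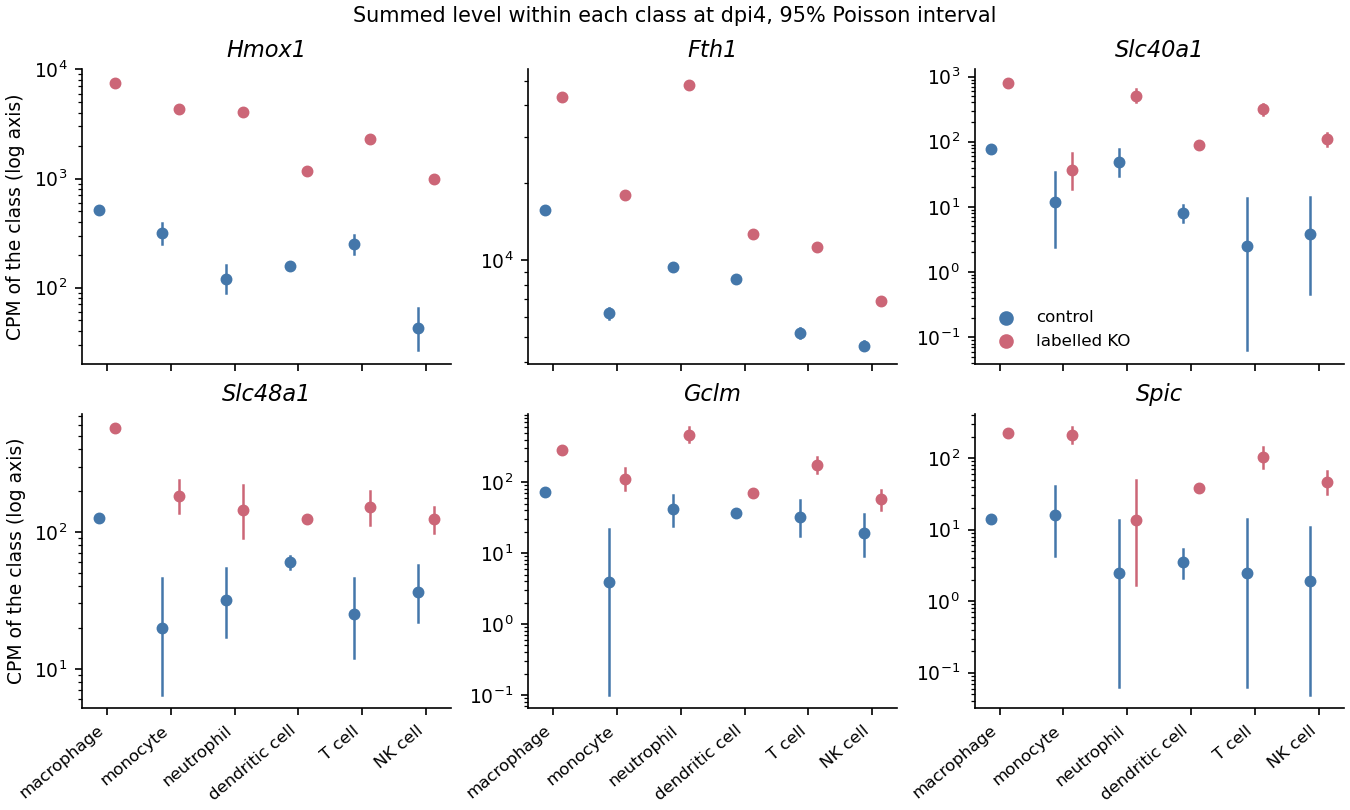
Level in CPM of the class (vertical axis, log scale) of *Hmox1*, *Fth1*, *Slc40a1*, *Slc48a1*, *Gclm* and *Spic* in control and labelled KO cells of 6 classes, with 95% Poisson intervals for counting error. The library labelled KO lies above the control for *Hmox1* in all 6 classes, from 42.5 and 996 CPM in NK cells to 514 and 7550.5 CPM in macrophages.

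Values in NK cells, which Lyz2-Cre does not target, are set beside those of the other classes. NK cells, which do not make lysozyme, had 2152 *Lyz2* UMIs in the control, or 4154 CPM, and 0 in the library labelled KO, which allows up to 4.31 CPM. They also had 42.5 and 996 CPM of *Hmox1*, and whether they make it themselves was not tested. The part of free RNA in the values of the lymphocyte classes was not tested.

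To set cells side by side at 1 depth, each was thinned to 2000 UMIs, which left 4192 control cells and 3432 labelled KO. At that depth *Hmox1* was found in 27.1% and 83.0% of cells, *Slc40a1* in 7.32% and 43.5%, and *Slc48a1* in 16.6% and 52.2%. *Spic* was found in 1.84% and 27.2%, *Gclm* in 8.92% and 27.9%, and *Lyz1* in 4.84% and 21.3%. More cells labelled KO carried each of these transcripts at equal depth. Among NK cells, which Lyz2-Cre does not target, with median depths of 7715 and 6207 UMIs, the shares were 11.1% and 36.4% for *Hmox1*, 6.67% and 19.3% for *Slc48a1*, and 6.67% and 7.95% for *Gclm*. They were 0% and 10.2% for *Slc40a1*, 0% and 6.82% for *Spic* and 0% and 4.55% for *Lyz1*, where the 0 of 45 control cells allows a share of up to 7.87%. Over all cells labelled KO each of the 6 shares was above that of NK cells. Among macrophages *Hmox1* was found in 31.8% and 93.5%. *Cd74* was found in 59.9% and 44.5% of all cells and *Il1b* in 34.8% and 25.3%. For *Cd74* the shares were 55.6% and 35.9% in macrophages, 26.2% and 14% in neutrophils, 26.7% and 12.7% in T cells and 17.8% and 12.5% in NK cells. Without thinning they were 84.4% and 60.0%, 34.3% and 14%, 42.9% and 22%, and 51.1% and 24.7% in the same order, lower under the KO label in each of these 4 classes, and in dendritic cells 100% and 99.8%.

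At dpi2, 6 of the 23 heme and iron genes were higher, beside 3.17% of all genes, and at dpi4 4 were, beside 1.13%. The log2 ratios at dpi4 and dpi2 were 3.90 and 4.02 for *Hmox1*, 3.33 and 3.66 for *Slc40a1*, 2.15 and 2.08 for *Slc48a1*, and 1.41 and 1.17 for *Fth1*. The level of *Slc40a1* was itself different between the days, at 6.41 and 81.1 CPM at dpi2 and 66.3 and 666 CPM at dpi4, while that of *Hmox1* was similar, at 505 and 8215 CPM and 424 and 6332 CPM. *Spic* was at 3.51 and 96.9 CPM at dpi2, a log2 ratio of 4.79 against 3.97 at dpi4, and *Gclm* at 51.2 and 258 CPM. Of the 152 genes higher at dpi4, 115 were scored at dpi2, and of these 39 passed in the same direction and 9 in the opposite one, beside 2.72% of the 12158 genes scored on both days that were higher at dpi2 and 2.87% that were lower. Of the 334 lower genes 119 were scored at dpi2, 28 passed in the same direction and 22 in the opposite one, beside the same 2.87% lower and 2.72% higher. The difference between the days was not tested, since each day had 1 library per group.

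**Figure D5:**
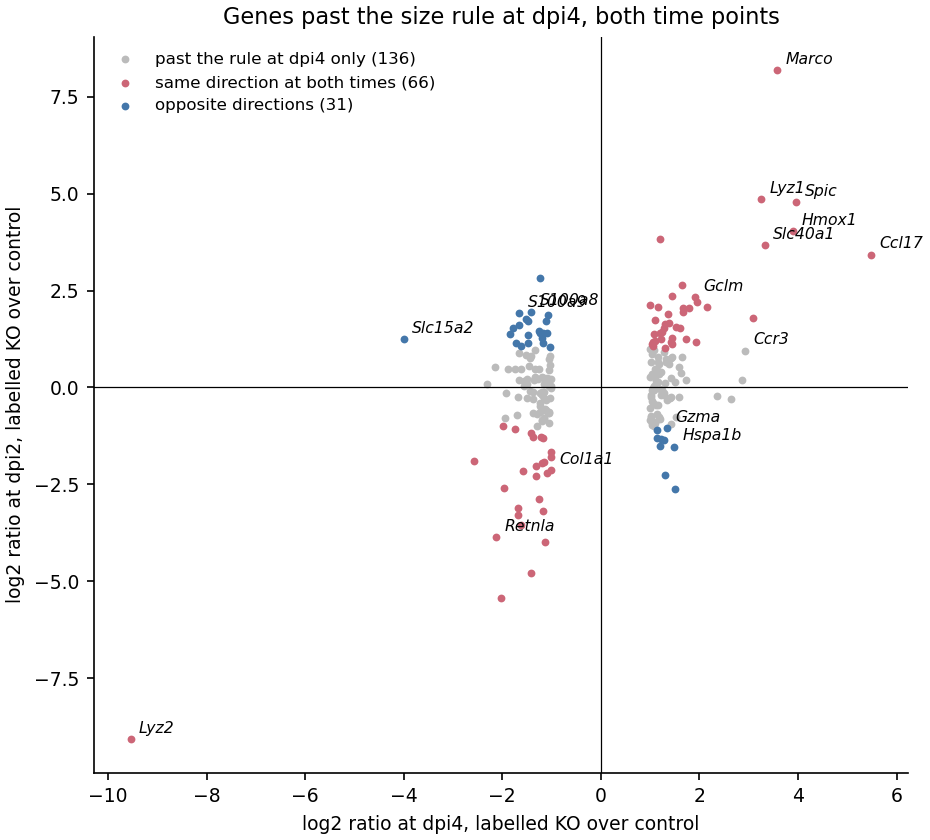
Log2 ratio of KO over control at dpi2 (vertical axis) against that at dpi4 (horizontal axis) for the 233 genes past the rule at dpi4 with at least 50 UMIs at dpi2, each point 1 gene. In the plot 66 genes passed in the same direction on both days, among them *Hmox1* and *Spic*, 31 in opposite directions, among them *Slc15a2* and *S100a8*, and 136 at dpi4 alone; 1 gene at 0 in a dpi2 library, *Cthrc1*, is left out.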

How the data were processed

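Single-cell 3′ RNA was measured in 4 libraries, 1 per group, of which the dpi4 pair is described and the dpi2 pair is set beside it. The authors deposited raw UMI counts per gene (27998 genes) and cell barcode, made with Cell Ranger 6.1.2 per the submitters' processing notes and the mm10 genome, without normalization. The deposited barcodes start at 500 UMIs, so shallower ones were not analysed here. Groups were taken from the labels.

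Barcodes with at least 500 genes and under 10% mitochondrial UMIs were kept, and their UMIs were summed per library and scaled to CPM. Kept totals of 76417632 and 58451689 UMIs set the precision. CPM values have exact Poisson intervals, ratios exact conditional binomial intervals, shares Clopper-Pearson intervals and differences of shares Newcombe intervals, all at 95% and limited to counting error. Where a UMI count was 0, up to 3 UMIs were allowed for. Genes with at least 50 UMIs in the pair were measured, and those at least 2-fold apart whose interval left out 1 passed the rule of size. No p-values were computed, because cells of 1 library are not replicates. This differs from the study, which compared cells. Of 358 genes in 20 response lists and 110 in 13 marker lists, 5 were not matched by symbol. Genes named are those with the 15 highest and 15 lowest ratios among genes with at least 200 UMIs, *Bach1*, *Lyz2* and *Lyz1*, and, in each list, members past the rule and the 2 highest and 2 lowest. Other list members are named with their values as examples, chosen after those values were seen. Some members that the rule would name are not reported here. The members and lists were chosen with earlier results of these data known.

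Cells of both libraries were clustered together (2000 variable genes without the response lists, *Lyz1*, *Lyz2* and *Xist*, 30 components, 15 neighbours, Leiden resolution 1; scanpy 1.11.5, leidenalg 0.10.2), and the 24 clusters were named from markers where at least 3 were detected. Clusters whose top genes pointed more to another class got no name. Doublets were kept in the main values. As an alternative, the 150 and 100 barcodes with the highest Scrublet scores were removed. Other settings tried covered fold, UMI, gene and mitochondrial limits, scaling by TMM factors (edgeR 4.0.16) or median-of-ratios factors, equal weight of cells, classes, clustering and thinning. One more, leaving out clusters whose best marker list was muscle, fibroblast or endothelial, was chosen after seeing the data. Intervals and motif searches were tested on simulated data. Positions are those of the GRCm38 gene annotation, the assembly behind mm10, transcripts those of GENCODE and promoters those of RefSeq (GRCm38.p6). Calculations used Python 3.11.15, numpy 2.4.6, scipy 1.17.1 and pandas 2.3.3.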

Additional observations from a re-analysis of the deposited data

Results flagged for a closer look

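Several genes passed the rule of size in opposite directions at dpi4 and dpi2. The difference between the days was not tested for any of them, since each day had 1 library per group. *Slc15a2*, a peptide transporter, had a log2 ratio of KO over control of -4.0 at dpi4 and 1.25 at dpi2, and *Hspa1b*, an inducible HSP70, had 1.48 and -1.52.

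Of 9 neutrophil markers, 4 passed the rule as lower at dpi4 and as higher at dpi2 in the library labelled KO. Of the 119 genes lower at dpi4 and scored at dpi2, 22 were higher at dpi2, beside 2.72% of all genes. The log2 ratios at dpi4 and dpi2 were -1.41 and 1.96 for *S100a8*, -1.65 and 1.91 for *S100a9*, -1.48 and 1.72 for the chemokine receptor *Cxcr2*, and -1.16 and 1.4 for *Hdc*, histidine decarboxylase. Of 8 NK cell markers, 3 passed the reverse way, as did 9 of the 115 higher genes scored at dpi2, beside 2.87% of all genes lower at dpi2, with 1.33 and -1.05 for *Gzma*, 1.15 and -1.11 for *Klra8* and 1.2 and -1.51 for *Prf1*, which encodes perforin.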

How the results depend on the processing

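No paired analysis was possible because the labels carry no shared replicate numbers and each group was 1 library. No replicate was left out for the same reason. With no replicates, depth limits only the counting error, and genes near 50 UMIs had the widest intervals.

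Of the log2 ratios of named genes under the alternatives, 1432 stayed within their counting interval with the same direction, 353 moved outside it and 13 turned. Of list medians 362 stayed and 64 moved. The cause of these moves was not tested.

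The count of genes past the rule was 486. It was 1264 at 1.5-fold (492 higher, 772 lower), 126 at 3-fold (36 and 90) and 254 with at least 200 UMIs (88 and 166), where the changed limit itself sets the number. It was 268 in macrophages only (152 lower) and 296 without the muscle, fibroblast and endothelial clusters (150 lower). The 21 response list members past the rule were 62 at 1.5-fold and 10 at 3-fold. The 29 marker list members were 8 at 3-fold and 11 in macrophages.

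*Ccl1* turned to -1.88 under 5% mitochondrial UMIs. In macrophages only, the ratios turned for *Sfrp2* (0.0078), *Ccl5* (-0.22), *Mmp2* (0.064), *Dcn* (0.25), *Nkg7* (-0.19), *Gzma* (-0.54), *Klre1* (-0.21), *Klra8* (-0.75), *Eomes* (-0.34) and *Cd79a* (-0.67). Without the muscle, fibroblast and endothelial clusters they turned for *Mmp2* (0.0085) and *Dcn* (0.13).

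Class shares depended on the clustering. In percentage points of KO minus control, the macrophage difference of 5.16 was 0.264 at resolution 0.5 and 7.98 with each library clustered by itself, where a cluster led by *Il1b* was named macrophage in the library labelled KO (280 cells) and got no name in the control (326 cells). In the latter the T cell difference was 1.61, NK cell 0.350, fibroblast 0.0772 and endothelial -0.578, the last pair turned from -1.68 and 0.472, where the names covered other cells (95 control NK cells and 0 T cells, 82 fibroblasts labelled KO and 0 endothelial cells). The difference of the cluster led by muscle genes, -4.36, was -1.47 with genes past the rule also left out of clustering, -2.72 at resolution 0.5 and -5.54 with doublets removed, and the fibroblast difference was -0.573, -0.547 and -0.496 in these.

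Differences in shares of cells with a UMI, in points at 5000 UMIs and without thinning, were 44.1 and 24.0 for *Hmox1*, 43.2 and 41.3 for *Slc40a1*, 39.9 and 19.8 for *Slc48a1*, 19.4 and 21.1 for *Lyz1*, 32.5 and 30.4 for *Gclm*, 40.3 and 47.8 for *Spic*, 6.62 and 11.3 for *Epb41l3*, 7.26 and 16.3 for *A530032D15Rik*, -90.8 and -77.1 for *Lyz2*, -12.0 and -19.7 for *Il1b*, and -18.6 and -19.4 for *Cd74*.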

Other observations

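Some genes outside the naming rule are given here because their values stood out once seen. *Creg1*, a glycoprotein of the lysosome, was at 596 and 1245 CPM, control first, and *Por*, the electron donor that heme oxygenase and cytochrome P450 enzymes depend on, at 76.6 and 200.2 CPM. *Clec4n*, the fungal receptor dectin-2, was at 158 and 432 CPM, and *Il18bp*, the secreted inhibitor of interleukin 18, at 62.9 and 169 CPM. These 4 genes passed the rule within macrophages too, with log2 ratios there of 1.06, 1.43, 1.68 and 1.45. At dpi2 *Il18bp* had a log2 ratio of -0.95.

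*Cd1d1*, which presents lipids to NKT cells, was at 4.53 and 14.4 CPM, and *Treml4*, found on red pulp macrophages and dendritic cells, at 5.34 and 13.1 CPM.

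Among lower genes, *Postn*, the matrix protein periostin, was at 172 and 54.4 CPM, and *Mt2*, a metallothionein that binds zinc, at 34.7 and 13.9 CPM. *Gas7* was at 83.6 and 35.7 CPM, with a log2 ratio of -1.29 within macrophages.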
